A study of Mus musculus with 20 samples.

Results

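DNA methylation at 3 loci of the hedgehog pathway, Shh, Gli1 and Smo, was followed in neurons and non-neurons of the mouse hypothalamus through the first 3 weeks after birth. The members are the 28 intervals of the deposited table, of 50782 in all, that overlap chr5:28775000-28805000 (Shh, 11 intervals), chr10:126760000-126785000 (Gli1, 11 intervals) or chr6:29680000-29715000 (Smo, 6 intervals) on the mm9 assembly. All mice were male C57BL/6, an inbred laboratory strain, with no transgene or treatment named in the labels. The 4 groups were neurons at postnatal day 21 (P21), non-neurons at P21, neurons at postnatal day 0 (P0) and non-neurons at P0, with 5 libraries each. A library came from nuclei pooled from 2 hypothalami and sorted on NeuN, a nuclear protein of neurons, so that the non-neurons are all NeuN-negative nuclei and not a single cell type.

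In the assay, unmethylated CCCGGG sites were cut with SmaI and the remaining methylated ones with XmaI, and fragments with XmaI ends were amplified and sequenced. Reads therefore come from a stretch between neighbouring CCCGGG sites when both of its end sites are methylated. Values are read counts scaled to library size (CPM, with TMM factors), a relative scale and not a percentage of methylated molecules. A partial gain of methylation in all nuclei of a sort and a full gain in some of them cannot be told apart. Intervals are numbered here in order of position within each locus, and touching intervals share a cut site, so their counts are not independent.

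Sonic hedgehog, encoded by Shh, is a secreted ligand that patterns the ventral brain, the hypothalamus included. Ligand binding to the receptor Patched releases its inhibition of Smoothened, the membrane protein encoded by Smo, and the signal ends on the Gli transcription factors. Gli1 is both an activator in this pathway and one of its target genes, and its transcript is widely used as a readout of signalling. In the RefSeq gene table of GRCm38.p6, Shh lies between Rbm33 and the long non-coding gene 9530036O11Rik, Gli1 between Arhgap9 and Inhbe, and Smo between Tspan33 and Ahcyl2. The deposited intervals carry no gene names and an mm9 annotation was not used here, so no interval is assigned to a promoter, exon or intron, and a window may reach into a neighbour.

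The assay reads only those CpG sites that lie inside CCCGGG. How sparse that sampling is can be seen in the RefSeq promoter of Smo (1 of the 3 genes matched the promoter table; GRCm38.p6, chr6:29735247-29735546, plus strand, around the gene's start, CG dinucleotides in capitals).
Smo promoter: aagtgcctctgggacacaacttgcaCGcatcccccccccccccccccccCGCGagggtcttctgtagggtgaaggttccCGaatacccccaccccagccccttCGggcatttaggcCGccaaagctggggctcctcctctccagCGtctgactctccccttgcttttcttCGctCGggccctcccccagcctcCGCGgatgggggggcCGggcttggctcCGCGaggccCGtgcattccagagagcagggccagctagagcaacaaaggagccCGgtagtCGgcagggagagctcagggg
These 300 bases hold 17 CG dinucleotides and 0 CCCGGG sites on either strand (the motif is its own reverse complement). Over all 32851 promoters of the same length in that table, 13.5% hold CCCGGG.

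Library totals ran from 5663740 to 9998110 reads. Of the 28 intervals, 15 held enough reads to be tested (53.6%, against 52.5% of the whole table): 4 at Shh, 7 at Gli1 and 4 at Smo. Library scores on the third principal component, with 5.06% of the variance, parted P0 neuron replicates 1 to 3 (30.2 to 44.3) from replicates 4 and 5 (-18.9 and -15.7), and P0 non-neuron replicates 1 to 3 (-16.2 to 9.22) from replicates 4 and 5 (-27.2 and -42.6). Fits with each of these subsets alone were also made. The loci were chosen by gene name, with earlier results of these data known, among them the ratio of neurons to non-neurons at P21 of Shh interval 4, 1 of the largest in the table. That comparison, and those that share its libraries (P21 against P0 in either cell type, and the interaction), are therefore given for these loci as fitted differences without p-values. Where one of these differences is said to be called, it had an adjusted p under 0.05 in the same fit over all tested intervals, which describes the fit and is no independent evidence, since the choice of the loci used or shared those libraries. Neurons against non-neurons at P0 share no library with that comparison, and p-values are printed for them alone. It is not recorded which comparisons the choice of the loci used, so P0 results may also have been known. The spread in the P0 test was estimated over all 20 libraries, those of P21 included.

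**Figure D1:**
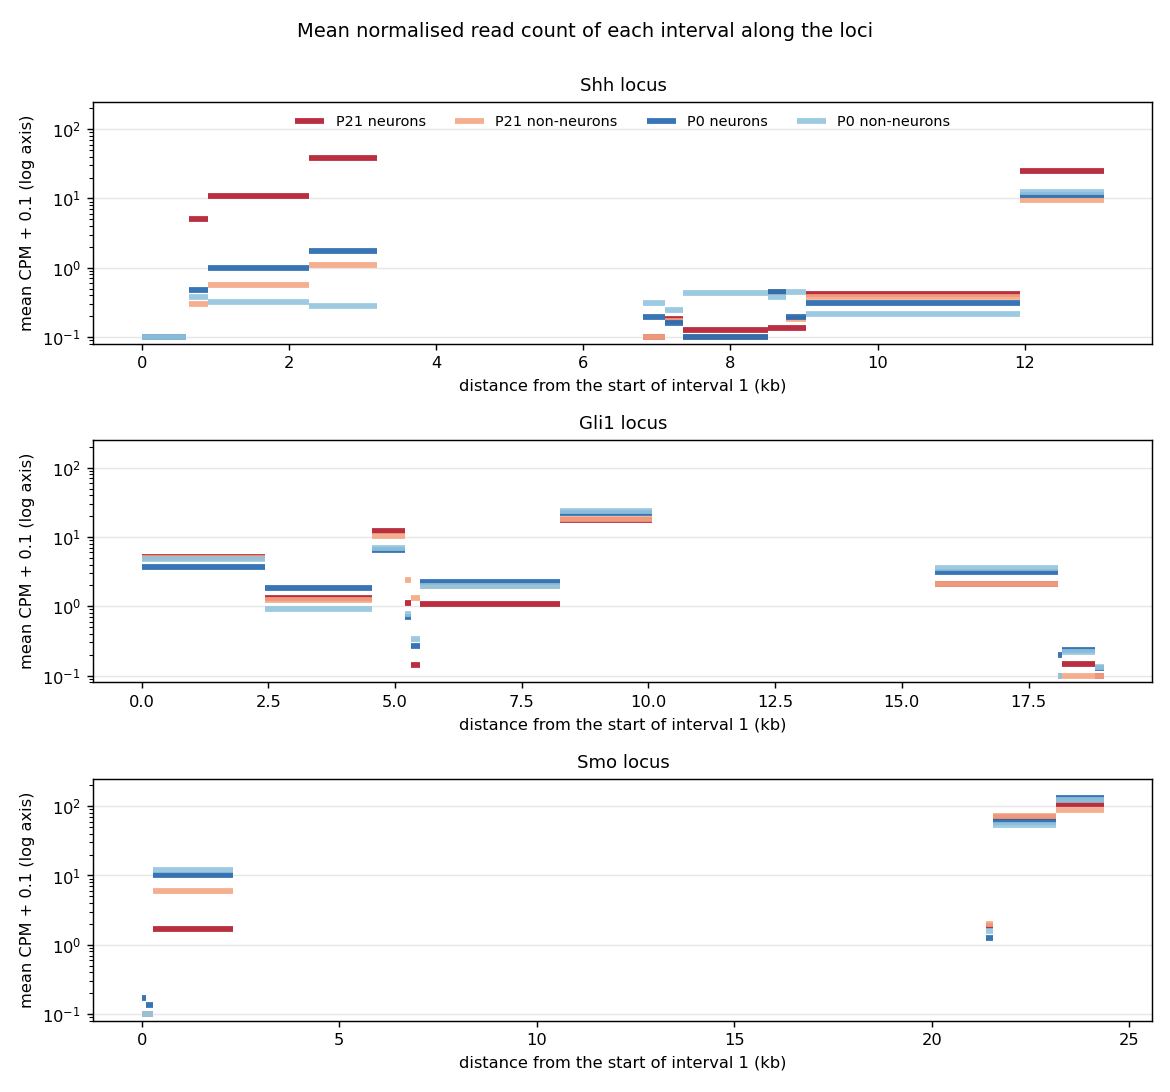
Mean CPM plus 0.1 of every interval (log axis) against distance from the start of interval 1 at each locus (kb), with 1 bar per interval drawn to its length and 1 colour per group. At Shh, intervals 2 to 4 stand at 5.03, 10.7 and 37.6 CPM in P21 neurons and under 2 CPM in the other groups, intervals 5 to 10 lie near 0 in all groups, and interval 11 is covered in all of them.

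Shh, the ligand locus, gained reads in neurons after birth at its 4 tested intervals (of 11), against 31% of all tested intervals called higher. Intervals 2 and 3 reached the tested set only through P21 neurons, where they were high, and touching intervals share sites. Nothing is therefore read from this count against that share. The gain lay in 2 places: a chain of 3 touching intervals (2 to 4, chr5:28784851-28787412) with very few reads in the other 3 groups, and interval 11 (chr5:28796137-28797286), which was covered in all groups at birth. Between them, 6 touching intervals had almost no reads at either age in either cell type.

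Shh interval 4 (chr5:28786478-28787412, 934 bp) had the most reads of the chain. It had 33.8, 32.1, 40.4, 42.1 and 39.8 CPM in the 5 P21 neuron libraries, against 1.53, 0.56, 0.25, 0.56 and 2.00 CPM in the P21 non-neuron libraries. P0 neurons had 2.60, 1.05, 1.58, 1.54 and 1.52 CPM, against 0.31, 0, 0.27, 0.31 and 0 CPM in P0 non-neurons. The lowest P21 neuron library thus lay far above every other library, and neurons were above non-neurons at each age without overlap. At birth the difference rested on 50 reads in all P0 neuron libraries and 6 in all P0 non-neuron libraries. Neurons were higher at P0 by 3.03 ± 0.54 on the log2 scale (SE, n = 5 each; edgeR's quasi-likelihood test with Benjamini-Hochberg adjustment over all 26679 tested intervals, adjusted p = 5.73e-05). With P0 replicates 4 and 5 alone the log2 fold change was 3.08 and the adjusted p 0.0538 in the same edgeR test.

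Shh interval 4 was the only member of the 15 tested with a difference called at P0 (6.67%, against 9.78% of all tested intervals, of which 6.92% were higher and 2.86% lower in neurons). It was also the only member whose groups did not overlap at P0, against 9.4% of all tested intervals (6.65% higher and 2.75% lower in neurons). At P21 the fitted difference of Shh interval 4 between neurons and non-neurons was 5.22 ± 0.25 on the log2 scale (SE), which placed it at rank 7 from the top of all tested intervals. From P0 to P21 neurons rose by 4.51 ± 0.24, a 22.7-fold change. Non-neurons rose by 2.32 ± 0.58 on the log2 scale, with 1 of the P21 libraries inside the range of P0. Reads thus increased with age in both cell types at this interval, and the means reached 37.6 ± 4.39 CPM in P21 neurons and 0.98 ± 0.75 CPM in P21 non-neurons (SD, n = 5 each). The interaction, which is the neuron minus non-neuron difference at P21 minus that at P0, was 2.19 ± 0.90 (SE) and was not called, but was 2.66 with a call without P21 non-neuron replicate 5 and 2.10 with a call in DESeq2.

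The other intervals of the chain had fewer reads. Shh interval 3 (chr5:28785104-28786478, 1374 bp) had 9.50, 10.03, 9.94, 13.5 and 10.3 CPM in P21 neurons, against 0, 0.70, 1.11, 0 and 0.47 CPM in P21 non-neurons. It had 0.69, 0.15, 0.70, 2.06 and 0.91 CPM in P0 neurons, against 0.92, 0.16, 0, 0 and 0 CPM in P0 non-neurons. P21 neurons stood apart from all other libraries here too, whereas the cell types overlapped at P0. The P0 log2 fold change of 1.95 ± 0.79 (SE; adjusted p = 0.135, edgeR) was 4.02 without P0 non-neuron replicate 1 (edgeR adjusted p = 0.00537) and 6.53 with P0 replicates 4 and 5 alone (edgeR adjusted p = 0.0136). In that subset P0 non-neurons had no read, so the size of the fitted value depends on the prior count. Its interaction, 2.51 ± 1.16 on the log2 scale (SE), was not called, and was 0.44 without P0 non-neuron replicate 1, 3.97 with P0 replicates 1 to 3 alone, where it was called, and -2.08 with P0 replicates 4 and 5 alone, where it was not. Its sign thus rested on the few reads at P0.

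Shh interval 2 (chr5:28784851-28785104, 253 bp) had 4.18, 5.46, 5.94, 5.17 and 4.41 CPM in P21 neurons, against 0.14, 0, 0.49, 0.14 and 0.23 CPM in P21 non-neurons. It had 0.52, 0.30, 0.35, 0.69 and 0 CPM in P0 neurons, against 0.92, 0.32, 0, 0 and 0.18 CPM in P0 non-neurons. At birth the cell types overlapped, with 11 and 9 reads in all libraries of P0 neurons and P0 non-neurons, and the log2 fold change was 0.35 ± 0.74 (SE; adjusted p = 0.867, edgeR). At P21 neurons exceeded non-neurons by 4.49 ± 0.50 at interval 2 and by 4.45 ± 0.46 at interval 3, on the log2 scale (SE). The rise from P0 to P21 in neurons was 3.74 ± 0.48 and 3.56 ± 0.43. In non-neurons the same change was -0.40 ± 0.78 and 1.05 ± 0.85, and neither was called. Without P0 non-neuron replicate 1 these were 0.75 at interval 2 and 3.12, with a call, at interval 3. Intervals 2 and 3 entered the tested set only because of P21 neurons, the group in which they were high, so that a call between P21 neurons and the others was built into their selection. The interaction of interval 2, 4.14 ± 1.00 on the log2 scale (SE), was counted as called, but was 2.99 without P0 non-neuron replicate 1 and 2.72 with P0 replicates 4 and 5 alone, with no call in either.

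**Figure D2:**
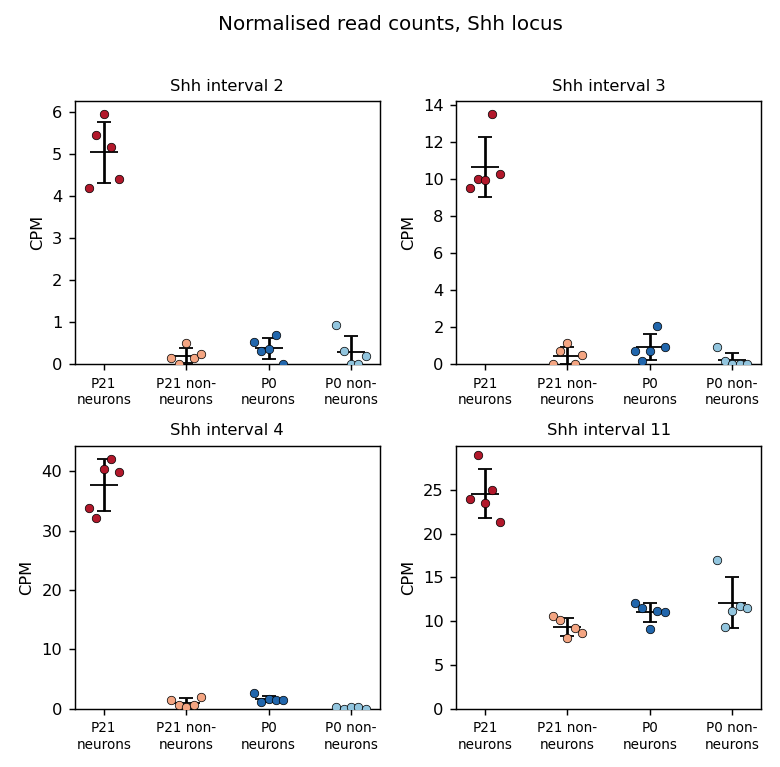
CPM of the 4 tested Shh intervals in each library (points), by group on the x axis, with the mean and SD (bars, n = 5). P21 neurons lie above all other libraries at each of these intervals, by the widest margin at interval 4 (32.1 to 42.1 CPM) and with a shared covered state in the other groups at interval 11 (8.04 to 17.0 CPM).

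Shh interval 11 (chr5:28796137-28797286, 1149 bp) had 23.9, 29.0, 23.5, 25.0 and 21.4 CPM in P21 neurons, against 10.6, 10.1, 8.04, 9.17 and 8.69 CPM in P21 non-neurons. It had 12.1, 11.5, 9.15, 11.2 and 11.1 CPM in P0 neurons, against 17.0, 9.30, 11.2, 11.7 and 11.5 CPM in P0 non-neurons. The cell types overlapped at birth and were fully apart at P21, when neurons were higher. No difference was called at P0 (log2 fold change -0.14 ± 0.15, SE; edgeR adjusted p = 0.701). At P21 neurons were higher by 1.40 ± 0.14 on the log2 scale, or 2.64-fold. Neurons rose from P0 to P21 by 1.16 ± 0.14, and the change in non-neurons, -0.38 ± 0.15, was counted as called, a call kept in 23 of 31 alternatives and lost without P0 non-neuron replicate 1 (-0.23) or P21 non-neuron replicate 3, 4 or 5 (-0.34 to -0.38). Library totals alone (-0.16) and P0 replicates 4 and 5 alone (-0.33) also lost it. So did no filter on low counts (-0.38) and the compared groups alone (-0.38). The interaction was 1.54 ± 0.21 on the log2 scale (SE). Because this interval passed the filter in all 4 groups, its selection into the tested set did not depend on P21 neurons.

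The 7 Shh intervals that were not tested were 1 and 5 to 10. Interval 1 (chr5:28784208-28784815), 36 bp from the start of the chain that gained reads, had no read in any of the 20 libraries. A count of 0 allows up to 3 reads per library, or 0.3 to 0.53 CPM on library totals, counting error only. Intervals 5 to 10 (chr5:28791025-28796137) had at most 8 reads in any library. Summed over the 7 intervals, 24 reads were counted in P21 neuron libraries, 29 in P21 non-neuron libraries, 25 in those of P0 neurons and 48 in those of P0 non-neurons. These stretches were thus near the limit of detection in all groups, whereas interval 11, which begins where interval 10 ends, was covered throughout. An interval stays uncovered when either of its end sites is unmethylated, but its own counts do not show whether this was so, or at which site. The cause of the low counts was not tested. Interval 10 shares a site with interval 11, where reads were found in all 20 libraries. Of the Shh intervals 63.6% went untested, against 47.5% of the table.

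Smo, the locus of the signal transducer, showed its clearest difference in the opposite direction. Smo interval 3 (chr6:29686094-29688137, 2043 bp) lost reads with age in both cell types, more so in neurons. It had 1.39, 1.58, 1.95, 1.21 and 1.70 CPM in P21 neurons, against 9.21, 6.18, 7.05, 4.03 and 2.94 CPM in P21 non-neurons. It had 11.8, 8.55, 8.79, 10.98 and 10.8 CPM in P0 neurons, against 13.5, 12.8, 8.44, 10.96 and 13.7 CPM in P0 non-neurons. Every P21 neuron library was below every library of the other groups, and P21 non-neurons spread the most.

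At birth the cell types overlapped at Smo interval 3 and no difference was called (log2 fold change -0.22 ± 0.21, SE; edgeR adjusted p = 0.64). From P0 to P21 neurons fell by 2.68 ± 0.25 on the log2 scale (SE), a 6.41-fold loss, to a mean of 1.57 ± 0.28 CPM at P21, against 10.2 ± 1.42 CPM at P0 (SD, n = 5 each). Non-neurons fell by 1.01 ± 0.21, a 2.02-fold loss, to 5.88 ± 2.48 CPM at P21, against 11.9 ± 2.20 CPM at P0, with 1 P21 library above the lowest P0 library. The difference between cell types at P21 was -1.88 ± 0.26 and the interaction -1.67 ± 0.33 (log2 scale, SE). Smo intervals 1 and 2 (chr6:29685816-29686094), which touch interval 3, had 2 reads and 1 read over all 20 libraries. Interval 2 shares a site with interval 3, where reads were found in all 20 libraries.

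The other Smo intervals, 19063 bp further along, were covered in all groups. Smo interval 6 (chr6:29708959-29710185) had 106.0 ± 9.35 CPM in P21 neurons, 88.3 ± 14.8 CPM in P21 non-neurons, 132.6 ± 25.0 CPM in P0 neurons and 123.9 ± 17.9 CPM in P0 non-neurons (n = 5 libraries, SD), a mean level above 90.5% of tested intervals. Smo interval 5 (chr6:29707379-29708959) had 68.9 ± 7.02 CPM in P21 neurons, 71.1 ± 9.84 CPM in P21 non-neurons, 58.3 ± 6.12 CPM in P0 neuron libraries and 53.1 ± 6.36 CPM in P0 non-neuron libraries (SD, n = 5 each), above 83.2% of tested intervals. The cell types overlapped at both ages in both intervals, and no difference was called at P0 (edgeR adjusted p = 0.721 for interval 6 and 0.547 for interval 5). With age these touching intervals moved in opposite directions by small amounts: the P21 minus P0 log2 difference was -0.32 ± 0.11 in neurons and -0.49 ± 0.11 in non-neurons at interval 6, and 0.24 ± 0.10 and 0.42 ± 0.10 at interval 5 (SE). These changes were counted as called, but each was lost in at least 1 alternative. At interval 5, after removal of the length trend, the change was -0.17 in neurons and 0.06 in non-neurons. At interval 6, with library totals alone, it was -0.12 in neurons and -0.27 in non-neurons. The neuron call at interval 5 was kept in 19 of 31 alternatives. It was also lost without replicate 1, 4 or 5 of P0 neurons or of P21 neurons (0.19 to 0.25). RLE scaling (0.20), upper-quartile scaling (0.16) and DESeq2 (0.20) lost it too. So did the compared groups alone (0.21) and P0 replicates 1 to 3 alone (0.14). The neuron call at interval 6 was also lost without P0 neuron replicate 2 (-0.20) and with P0 replicates 4 and 5 alone (-0.11). At P21 the difference between cell types at interval 6 was 0.27 ± 0.11 and not called. It was called without P21 non-neuron replicate 2 (0.33) or 3 (0.32) or P0 neuron replicate 2 (0.27). A call was also made with P0 replicates 1 to 3 (0.27) or 4 and 5 (0.26) alone, and with blocking on replicate number (0.27). Smo interval 4 (chr6:29707200-29707379, 179 bp) had 0.70 to 3.63 CPM over all libraries, the groups overlapped, and none of its differences was called.

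**Figure D3:**
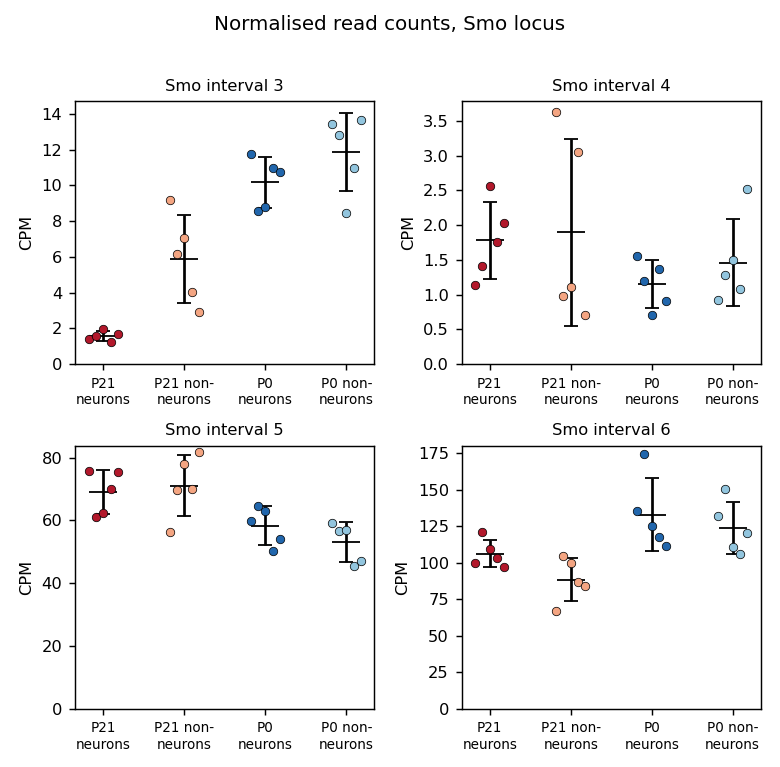
CPM of the 4 tested Smo intervals in each library (points), by group on the x axis, with the mean and SD (bars, n = 5). At interval 3 all P21 neuron libraries (1.21 to 1.95 CPM) lie under all other libraries, whereas at intervals 4 to 6 the cell types overlap at each age.

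Gli1, the transcription factor and target gene, had 0 of 7 tested intervals called between cell types at birth, with edgeR's quasi-likelihood test and with DESeq2. Since edgeR called 9.78% and DESeq2 10.2% of the whole tested table, nothing is read from 0 of 7. At P21 the difference counted as called lay at a short interval with few reads, where non-neurons were the higher group. Gli1 interval 4 (chr10:126763620-126763736, 116 bp) had 0.76, 1.41, 1.13, 0.88 and 0.90 CPM in P21 neurons, against 2.79, 1.12, 3.59, 1.95 and 2.11 CPM in P21 non-neurons. It had 0.69, 0.45, 0.53, 0.51 and 0.76 CPM in P0 neurons, against 0.76, 0.96, 0.41, 0.46 and 0.72 CPM in P0 non-neurons. P21 non-neurons lay above all P0 libraries but overlapped P21 neurons, and the cell types overlapped at birth (log2 fold change -0.15 ± 0.49, SE; edgeR adjusted p = 0.923). Non-neurons rose with age by 1.80 ± 0.39 on the log2 scale (SE). Interval 4 passed the filter with 4 P21 non-neuron libraries, 1 P21 neuron library and 0 P0 libraries above the threshold. A call with P21 non-neurons as the higher group was thus partly built into its selection. The P21 difference of -1.16 ± 0.34 was -0.69 with no call after removal of the length trend. The rise in neurons, 0.79 ± 0.44, was not called, nor was the interaction, -1.01 ± 0.61. Every P21 neuron library lay above every P0 neuron library, by a narrow margin (0.7601 against 0.7582 CPM), as at 23% of all tested intervals. With library totals alone the rise in neurons was 0.99, with a call.

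The touching Gli1 interval 5 (chr10:126763736-126763918, 182 bp) was too thin to be tested. It had 0, 0, 0, 2 and 0 reads in P21 neurons, against 8, 3, 15, 11 and 10 reads in P21 non-neurons. It had 0, 0, 1, 2 and 2 reads in P0 neurons, against 0, 2, 0, 2 and 3 reads in P0 non-neurons. P21 non-neurons were high at both of these neighbouring stretches. They share a site and are not independent.

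Gli1 interval 3 (chr10:126762977-126763620, 643 bp) had 12.0 ± 2.13 CPM in P21 neurons, 10.1 ± 3.11 CPM in P21 non-neurons, 6.39 ± 2.29 CPM in P0 neurons and 6.89 ± 2.22 CPM in P0 non-neurons (SD, n = 5 each). The cell types overlapped at each age. Neurons rose with age by 0.92 ± 0.22 on the log2 scale (SE), with 1 P21 library below the highest P0 library. The rise in non-neurons, 0.56 ± 0.23, was counted as called, a call kept in 23 of 31 alternatives. This call was lost without P0 non-neuron replicate 2, 3 or 5 (0.42 to 0.53) and without P21 non-neuron replicate 3 (0.35) or 5 (0.54). It was also lost in DESeq2 (0.52) and with P0 replicates 1 to 3 (0.60) or 4 and 5 (0.48) alone.

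Gli1 interval 7 (chr10:126766673-126768500, 1827 bp) had the most reads at this locus. It had 18.8, 18.04, 13.1, 17.7 and 20.1 CPM in P21 neurons and 17.6, 19.8, 18.9, 18.6 and 15.5 CPM in P21 non-neurons. It had 21.97, 14.1, 20.8, 27.1 and 27.3 CPM in P0 neurons and 21.9, 19.9, 20.4, 28.1 and 28.1 CPM in P0 non-neurons. The highest P0 libraries of each cell type were replicates 4 and 5, which stood apart from replicates 1 to 3 on the third principal component. The change with age was -0.34 ± 0.15 in neurons and -0.39 ± 0.15 in non-neurons (log2 scale, SE), both counted as called. With P0 replicates 1 to 3 alone it was -0.11 and -0.21, and neither was called. With library totals alone the change was -0.15 in neurons and -0.16 in non-neurons, and again neither was called. Without a filter on low counts the change in neurons was -0.33 and not called. The call in neurons was also lost without P0 neuron replicate 1, 4 or 5 or P21 neuron replicate 2, 3 or 4 (-0.25 to -0.35), and that in non-neurons without P0 non-neuron replicate 4 or 5 or P21 non-neuron replicate 5 (-0.32 to -0.33).

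Gli1 interval 8 (chr10:126774089-126776497) also had high values in P0 replicates 4 and 5, which stood above replicates 1 to 3 in neurons but not in non-neurons. Replicates 4 and 5 had 4.29 and 4.40 CPM in P0 neurons and 4.48 and 4.14 CPM in P0 non-neurons, whereas replicates 1 to 3 ran from 1.23 to 3.29 CPM in P0 neurons and from 2.25 to 4.43 CPM in P0 non-neurons. P21 neurons averaged 2.02 ± 0.51 CPM and P21 non-neurons 2.02 ± 0.48 CPM (SD, n = 5 each). The fall with age in non-neurons, -0.80 ± 0.32 on the log2 scale (SE), was -0.58 and not called with P0 replicates 1 to 3 alone. It was also not called without P0 non-neuron replicate 1, 4 or 5 or P21 non-neuron replicate 5 (-0.65 to -0.74). With library totals alone the fall in non-neurons was -0.58 and not called. In neurons the change of -0.59 ± 0.32 was not called. It was -0.78 without P0 neuron replicate 3 and -1.11 with P0 replicates 4 and 5 alone, with a call in both, and -0.10 with P0 replicates 1 to 3 alone. After removal of the length trend the change in neurons was -0.75, with a call. In non-neurons it was -1.10 with replicates 4 and 5 alone.

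Gli1 interval 6 (chr10:126763918-126766673) had 0.79 to 1.24 CPM in P21 neurons, 0.84 to 2.64 CPM in P21 non-neurons, 0 to 3.09 CPM in P0 neurons and 0.95 to 3.42 CPM in P0 non-neurons. All groups overlapped, and the fall in neurons, -1.07 ± 0.45 on the log2 scale (SE), was counted as called, a call kept in 19 of 30 alternatives and lost without P0 neuron replicate 1, 3, 4 or 5 or P21 neuron replicate 1, 2, 3 or 4 (-0.89 to -1.11). Interval 6 also lost this call with library totals alone (-0.88), with the length trend removed (-0.96) and with P0 replicates 1 to 3 alone (-0.73). Its P21 difference between cell types was -0.90 ± 0.44 and not called, but was called with upper-quartile scaling (-1.09), with P0 replicates 4 and 5 alone (-0.91) and without P0 neuron replicate 2 (-0.90). Gli1 intervals 1 and 2 (chr10:126758425-126762977) had 1.67 to 6.78 and 0.15 to 2.698 CPM over all libraries, and none of their differences was called. The difference at P0 came nearest at interval 2, with a log2 fold change of 1.04 ± 0.44 (SE; adjusted p = 0.159, edgeR). In neurons the change with age was 0.46 ± 0.27 at interval 1 and -0.50 ± 0.40 at interval 2 (log2 scale, SE). It was called at interval 1 with library totals alone (0.67) and at interval 2 with the length trend removed (-0.91). Gli1 intervals 9 to 11 (chr10:126776497-126777420) had 3, 10 and 2 reads over all 20 libraries.

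**Figure D4:**
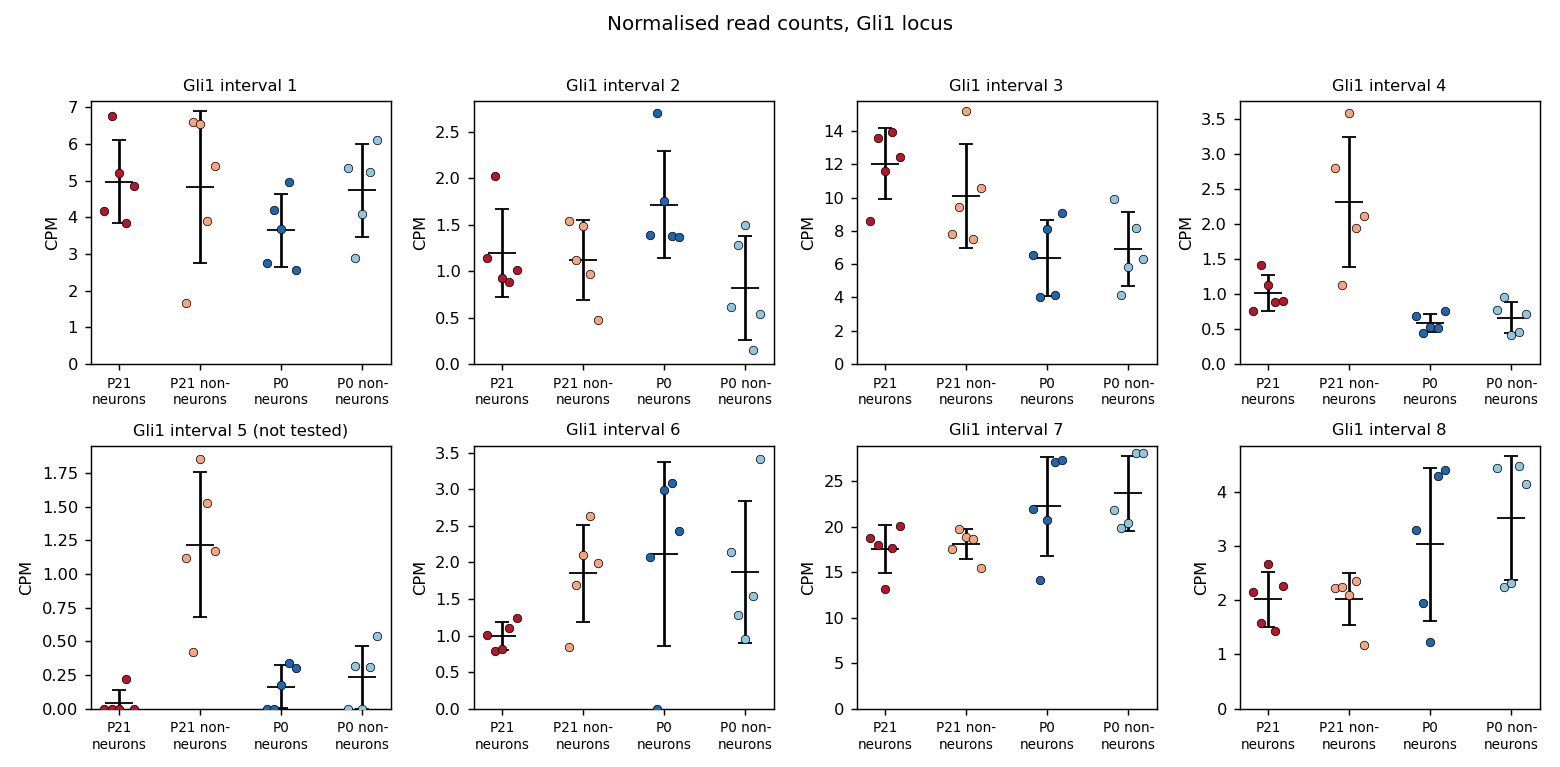
CPM of Gli1 intervals 1 to 8 in each library (points), by group on the x axis, with the mean and SD (bars, n = 5), and interval 5 shown although it was not tested. P21 non-neurons are high at intervals 4 and 5, P21 libraries of both cell types are high at interval 3, and P0 replicates 4 and 5 are the highest of their groups at interval 7.

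Set side by side, the 3 loci differed in what changed, and the numbers of calls were near those of the whole table. Between neurons and non-neurons at P21, 6 of the 15 tested members were called (40%, against 35.8% of all tested intervals), with 4 higher in neurons (20.8% of all), all at Shh, and 2 lower (15% of all), at Gli1 and Smo. The groups did not overlap at 5 members (23.8% of all tested intervals), 4 on the higher side (16.5%) and 1 on the lower side (7.33%). With age in neurons 10 were called (66.7%, against 57.3%), 6 rising (31% of all) and 4 falling (26.3% of all). P21 and P0 neurons did not overlap at 6 members (41.6% of all), 5 higher at P21 (23%) and 1 lower (18.6%). With age in non-neurons 9 were called (60%, against 54.3%), 4 rising (28.5% of all) and 5 falling (25.8% of all). P21 and P0 non-neurons did not overlap at 3 members (35.5% of all), 1 higher at P21 (17.5%) and 2 lower (18%). For the interaction 3 were called (20%, against 14.1%), 2 positive (10.9% of all) and 1 negative (3.24% of all), namely Shh intervals 2 and 11 and Smo interval 3.

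The medians over the 15 tested members were -0.09 at P0 and 0.05 at P21 for neurons against non-neurons, 0.46 and 0.04 for P21 against P0 (neurons, then non-neurons) and 0.21 for the interaction, on the log2 scale. Over all tested intervals they were 0.01, -0.06, 0.06, 0.03 and -0.05. The 2 comparisons with age share libraries with the P21 comparison. All counts include Shh intervals that reached the tested set through P21 neurons, and Gli1 interval 4, which reached it mainly through P21 non-neurons.

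**Figure D5:**
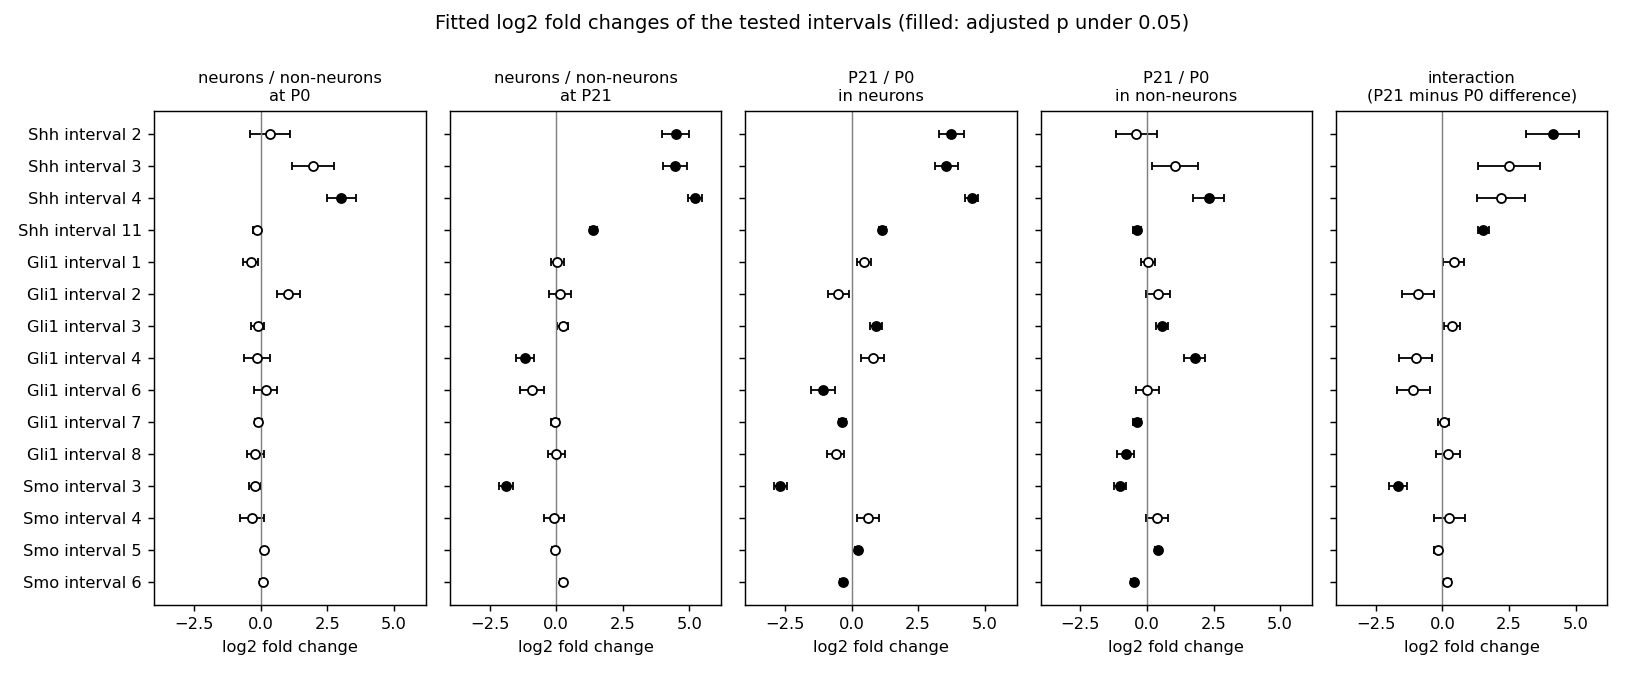
Fitted log2 fold changes with their SE (bars) for the 15 tested intervals in the 5 comparisons, with the first-named group over the second, and filled points for an adjusted p under 0.05 over all 26679 tested intervals. Shh intervals 2 to 4 reach 4.45 to 5.22 at P21, Smo interval 3 lies at -1.88, and at P0 the single filled point is Shh interval 4 at 3.03.

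At each locus the interval with the highest mean CPM was also set against every tested interval outside the 3 windows, by Pearson's r of log2 CPM over the 20 libraries, as a description. For Shh interval 11 the most similar were chr4:115623922-115624890 (r = 0.96), chr11:3471648-3473311 (r = 0.954) and chr15:79311793-79313047 (r = 0.945). The last of these had 47.7 CPM in P21 neurons, 17.9 CPM in P21 non-neurons, 20.8 CPM in P0 neurons and 22.02 CPM in P0 non-neurons, the same order of a high P21 neuron group over 3 similar ones. For Gli1 interval 7 the highest value was r = 0.919, at chr5:124569532-124572138, which averaged 4.52 CPM in P21 neurons, 5.16 CPM in P21 non-neurons, 7.85 CPM in P0 neurons and 9.27 CPM in P0 non-neurons. For Smo interval 6 it was r = 0.943, at chr7:90746756-90747718. The libraries form 4 groups, so r here mostly orders the group means.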

How the data were processed

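The authors deposited whole-number read counts for each SmaI/XmaI interval in 20 libraries (the unit was judged from the values). FastQC 0.10.1, cutadapt and Bowtie 0.12.9 were run against mm9, per the submitters' processing notes. The rule for assigning a read to an interval, and the handling of multi-mapping reads, are not given in the sources used here. Each of the table's columns was tied to 1 library by its age, fraction (G was taken to stand for glia) and number, and 0 columns belonged to other samples. Per the labels, the 5 samples of an age are independent, each with nuclei of 2 hypothalami.

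The members and lists were chosen with earlier results of these data known. Low intervals were dropped with filterByExpr (minimum count 10, total 15), and 26679 remained. The threshold came to 1.42 CPM in 5 libraries. Counts were scaled by TMM and fitted in edgeR 4.0.16 (R 4.3.3, glmQLFit with robust estimation) with a mean for each of the 4 groups, all libraries sharing the spread. Contrasts were tested with glmQLFTest and adjusted by the Benjamini-Hochberg method over the 26679 intervals, with a call at adjusted p under 0.05. Each SE is the size of the log2 fold change over the square root of its F. Reads carry no molecular identifiers, so limits on counts of 0 cover counting error only.

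Alternatives were 3 other scalings (RLE, upper quartile, library totals), 2 other filters (none, or 20 reads in 5 libraries), DESeq2 1.42.0, a fit of the compared groups alone, removal of a lowess trend on interval length (span 0.2), blocking on replicate number, and dropping each library in turn. Fits with P0 replicates 1 to 3, or 4 and 5, alone were added after seeing the data. The interval named at each locus for its most similar intervals was that with the highest mean CPM (log2 CPM, prior count 2). The other hedgehog pathway genes and the parts of genes need an annotation on mm9 and are not analysed here.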

Additional observations from a re-analysis of the deposited data

Results flagged for a closer look

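Outlying libraries were looked for in 60 sets of 5 libraries (15 tested intervals in 4 groups), where chance flags about 1 in 20. In 4 sets a single library stood apart by more than 0.71 of the range of its set. Shh interval 3 (chr5:28785104-28786478) had 13.5 CPM in P21 neuron replicate 4, above the others of its group, and 0.917 CPM in P0 non-neuron replicate 1, where 3 of the other libraries had no read. Gli1 interval 2 (chr10:126760868-126762977) had 2.02 CPM in P21 neuron replicate 2, above the others. Gli1 interval 8 (chr10:126774089-126776497) had 1.17 CPM in P21 non-neuron replicate 5, below the others.

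At 3 intervals the interaction in edgeR had an adjusted p under 0.05. It contains the comparison known when the loci were chosen and is given as a description. The gap at P21 minus that at P0, on the log2 scale, was 4.14 at Shh interval 2 (chr5:28784851-28785104), 1.54 at Shh interval 11 (chr5:28796137-28797286) and -1.67 at Smo interval 3 (chr6:29686094-29688137). Shh interval 2 entered the tested set only because of P21 neurons, where it was high, and its value was 2.99 without P0 non-neuron replicate 1 and 2.72 with P0 replicates 4 and 5 alone, with no call in either.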

How the results depend on the processing

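Of the calls among the 15 tested members, 5 of 6 for neurons against non-neurons at P21, 6 of 10 for age in neurons, 3 of 9 for age in non-neurons and 2 of 3 for the interaction kept their direction and their side of the threshold in every alternative run. Those kept include Shh intervals 2 and 3, which reached the tested set through P21 neurons, and Gli1 interval 4, mainly through P21 non-neurons. At P0 the call of Shh interval 4 (chr5:28786478-28787412) remained in 30 of 31 alternatives, the exception being P0 replicates 4 and 5 alone. Without a filter on low counts 2 of 27 members were called at P0 (7.41%, against 5.52% of all intervals then tested), the added one being Shh interval 7 (chr5:28791564-28792716), lower in neurons (log2 fold change -4.38, edgeR adjusted p = 0.0402) with 0 reads in P0 neurons, against 11 reads in P0 non-neurons. With library totals alone 5 members were called for age in non-neurons (33.3%, against 57.5% of all tested intervals). Leaving out 1 library at a time gave 1 to 2 calls at P0, 6 to 8 at P21, 7 to 10 and 5 to 9 with age (neurons, then non-neurons) and 2 to 4 for the interaction, while the share of all tested intervals called ran from 8.39% to 10.4%, 32.3% to 36.0%, 54.4% to 58.2%, 50.6% to 54.8% and 12.9% to 14.7%. The 5 with age came without P21 non-neuron replicate 5, and the 2 at P0 without P0 non-neuron replicate 1. The cause was not tested. Library totals alone moved the median of all tested intervals by 0.20 (neurons) and 0.22 (non-neurons) with age, and upper-quartile factors moved it by -0.19 at P21. The sign of a called value changed once, at Smo interval 5 for age in neurons (-0.17 with the length trend removed). At P0 members with no call took the other sign at Gli1 interval 4 (0.049 with the length trend removed, 0.13 with P0 replicates 4 and 5 alone), Gli1 interval 8 (0.006 with those replicates alone) and Shh interval 2 (-0.047 with P0 replicates 1 to 3 alone). Leaving out 1 library gave P0 log2 fold changes of -0.222 to 0.011 at Shh interval 11, -0.282 to 0.059 at Gli1 interval 3, -0.294 to 0.019 at Gli1 interval 4, -0.175 to 0.042 at Gli1 interval 7 and -0.020 to 0.179 at Smo interval 6. A fit of the compared groups alone was not run for the interaction.

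The labels do not say that a replicate number marks 1 sample sorted into both fractions. The correlations did not settle whether the numbers pair the libraries. Deviations of same-numbered neuron and non-neuron libraries correlated at -0.007 to 0.322 at P21 and 0.045 to 0.21 at P0. Some neuron libraries, but not all, correlated best with the non-neuron library of their own number. Across ages, same-numbered libraries correlated at -0.067 to 0.105 in neurons and -0.083 to 0.123 in non-neurons. With a replicate block the calls among members numbered 1 at P0, 7 at P21, 10 and 9 with age and 3 for the interaction. Of all tested intervals 13.6%, 41.5%, 59.2%, 56.3% and 19.2% were called, against 9.78%, 35.8%, 57.3%, 54.3% and 14.1% without the block. The added member was Smo interval 6 at P21 (0.27 with the block), and no call among members was lost.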
